A study of Mus musculus with 9 samples.

Results

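The 10 genes described here encode the core kinases of the Hippo pathway and the proteins that bind and activate them: the kinases Stk3 (MST2), Stk4 (MST1), Lats1 and Lats2, the adaptors Sav1, Mob1a and Mob1b, and the upstream scaffolds Nf2 (merlin), Wwc1 (KIBRA) and Wwc2. They were chosen by name for their place in the pathway, 10 of the 55450 genes in the count table, and all 10 were among the 19357 genes that passed the filter on low counts. RNA was sequenced from EYFP+ live cells sorted by FACS from the mammary glands of adult nulliparous mice, with 3 libraries in each of 3 groups. All mice carried K8CreERT2, a tamoxifen-inducible Cre driven by the promoter of the luminal keratin gene Krt8, and lsl-EYFP, a reporter that is switched on where Cre has acted, and all received 2 mg of tamoxifen on 5 days in a row, with the sort 7 days after the last dose. Control mice had these 2 transgenes and no floxed gene, mice of the group labelled LATS1/2-KO were in addition homozygous for floxed Lats1 and Lats2 (LATS1/2f/f), and those of the group labelled LATS1/2-Sox9-KO also for floxed Sox9 (Sox9f/f). No group without tamoxifen or without Cre was analysed here. Total counts ranged from 44167762 to 47003587 per library in control, from 50508666 to 61745346 in the group labelled LATS1/2-KO and between 55503365 and 61967651 in the group labelled LATS1/2-Sox9-KO.

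In the Hippo cascade, the STK3 and STK4 kinases, bound to the scaffold SAV1, phosphorylate the LATS kinases and their activating subunits MOB1A and MOB1B. NF2 and the WWC proteins recruit LATS to the cell cortex, where it is activated. Active LATS phosphorylates YAP and TAZ (the products of Yap1 and Wwtr1), which then stay in the cytoplasm or are degraded, and when LATS is inactive they enter the nucleus and drive target genes through the TEAD factors. In the mammary gland the pathway is known for its part in keeping luminal and basal cell states apart.

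Against control, the 10 genes did not move as a block in the libraries labelled LATS1/2-KO. Lats1 and its upstream adaptor gene Sav1 fell, while Stk3, Stk4, Mob1a, Mob1b and Wwc2 rose, and Lats2, Nf2 and Wwc1 did not pass the test. Thus 5 of the 10 were higher at an adjusted p of at most 0.05 (quasi-likelihood F test of edgeR, adjusted by Benjamini-Hochberg over all genes tested, which gave every adjusted p and standard error, SE, below), where 28.7% of all genes tested were higher, and 2 were lower, where 27.1% of all genes tested were lower. With a change of more than 2-fold as well, 2 were higher (Stk4 and Wwc2) and 1 lower (Lats1), against 34.6% of all genes tested in either direction. The median log2 fold change of the 10 genes was 0.43, beside 0.04 over all genes tested. In the libraries labelled LATS1/2-Sox9-KO, compared with the same control libraries, 6 of the 10 were higher and 2 lower, where 29.3% and 28.7% of all genes tested were, and 1 was higher and 1 lower by more than 2-fold, where 37.4% of all genes tested changed by that much in either direction. Between the deletion groups, none of the 10 was higher and 1, Nf2, was lower with LATS1/2-Sox9-KO labels, where 3.13% of all genes tested were higher, 3.33% lower and 3.71% changed by more than 2-fold in either direction. No source states that the libraries of a group came from separate mice, so the p-values measure the spread between these libraries.

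**Figure D1:**
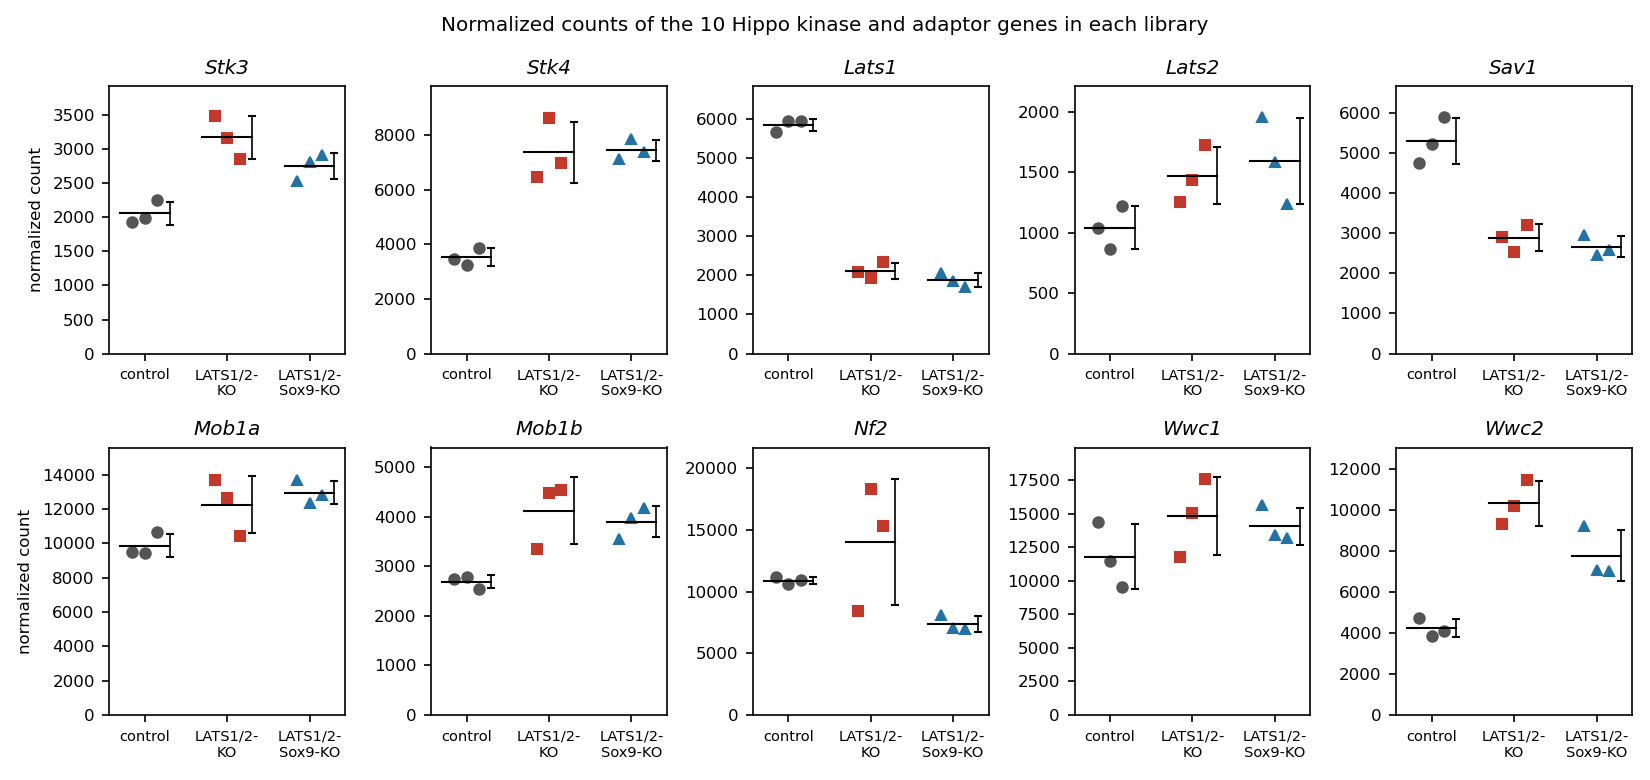
Normalized counts (y axes, linear and starting at 0) of the 10 genes in the 3 libraries of each group (x axes), with the group mean as a horizontal line and the SD as a bar to its right. Lats1 and Sav1 sit lower in both deletion groups than in control, and replicate 1 of the libraries labelled LATS1/2-KO, at 8403 normalized counts of Nf2, lies apart from the others of its group.

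The floxed kinase genes were examined first, as a check of the labels. Lats1 (ENSMUSG00000040021, chromosome 10, 7681214 to 7716460, + strand, GRCm38, 8 merged exons) encodes one of the kinases that phosphorylate YAP and TAZ. Its raw counts were 4890, 5228 and 4773 in the control libraries, 2084, 2270 and 2561 in those labelled LATS1/2-KO and 2217, 1851 and 1876 in those labelled LATS1/2-Sox9-KO. After normalization for library size, no library of either deletion group came near the control libraries, and the deletion libraries kept 36.2% of the control level with LATS1/2-KO labels (log2 fold change -1.47, SE 0.11, adjusted p = 7.07e-06) and 32.0% with LATS1/2-Sox9-KO labels (log2 fold change -1.64, SE 0.11, adjusted p = 2.8e-06). Lats1 RNA was therefore still counted in every deletion library. The position of the loxP sites in Lats1 is not given in the sources used here, and RNA outside the deleted stretch would still be counted. In these bulk samples, fewer cells with intact Lats1 and less Lats1 RNA per cell cannot be told apart. The 2 deletion groups, compared with each other, differed by a log2 fold change of -0.18 (95% interval from -0.45 to 0.10, adjusted p = 0.388).

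Lats2 (ENSMUSG00000021959, chromosome 14, 57689662 to 57758388, - strand) encodes the paralog of LATS1 with the same kinase activity. Its raw counts were 896, 763 and 980 in control, 1252, 1693 and 1889 in the libraries labelled LATS1/2-KO and 2108, 1586 and 1361 in those labelled LATS1/2-Sox9-KO. Lats2 thus did not fall with the labels, and every deletion library lay above every control library after normalization as well, by the smallest margin between control replicate 3 (1219.7 normalized counts) and LATS1/2-Sox9-KO replicate 3 (1239.7 normalized counts). The log2 fold change against control was 0.50 in the libraries labelled LATS1/2-KO (SE 0.20, adjusted p = 0.0571), which did not pass the test, and 0.61 in those labelled LATS1/2-Sox9-KO (SE 0.20, adjusted p = 0.024), which did. The first passed in 8 of 20 alternative settings and the latter in 16 of 20, and the latter lost its call without control replicate 1 (adjusted p = 0.0599), without control replicate 2 (adjusted p = 0.0929) or without LATS1/2-Sox9-KO replicate 1 (adjusted p = 0.0803). With an offset for the GC content and exon length of genes, the log2 fold changes were larger, at 0.89 (adjusted p = 0.00304) and 1.04 (adjusted p = 0.00108).

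Much of Lats2 shares its exon bases with another annotated gene. In the GENCODE M21 annotation of GRCm38, the first 6 of the 8 exons of the transcript Lats2-201 share all or, for exon 1, 214 of 234 bases, on the same strand, with exons of a readthrough gene, Gm49361 (ENSMUSG00000114942, chromosome 14, 57642077 to 57746103). The shared stretch is 2955 of the 5191 bases of the transcript, or 56.9%, and 42.4% of all merged exon bases of Lats2. Gm49361 had between 0 and 5 raw counts in every library, so reads from the shared exons were not assigned to it. How the authors' counting treated reads that lie in 2 genes is not given in the sources used here, and where such reads are left out, the Lats2 counts come from exons 7 (57694314 to 57694420) and 8 (57689662 to 57691770) and the other unshared bases. The position of the loxP sites in Lats2 is not given in the sources used here either, and a count of RNA outside the deleted stretch checks nothing about the deletion. The part of this overlap in the Lats2 values was not tested.

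**Figure D2:**
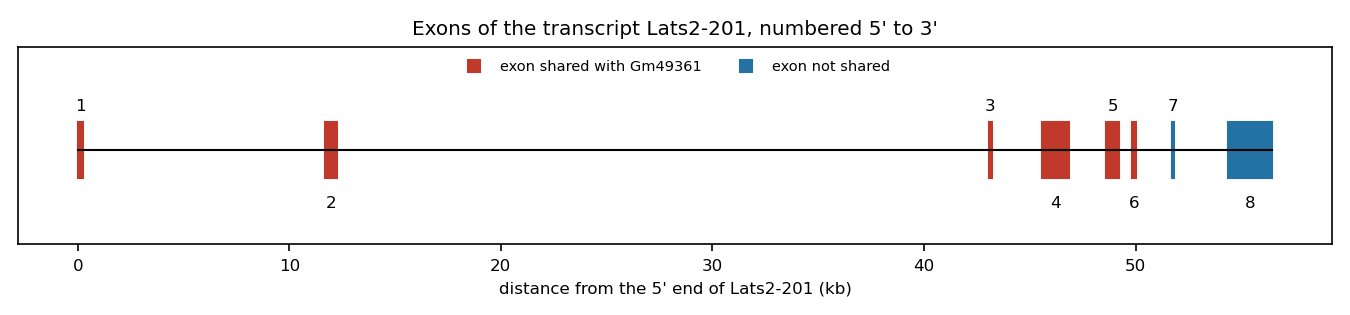
Exons of the transcript Lats2-201, drawn to scale along the distance from its 5′ end in kilobases (x axis), with exons that share bases with the readthrough gene Gm49361 in red and exons that share none in blue. Exons 1 to 6 are shared and exons 7 and 8 are not.

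Sox9, floxed in the third group only, and Krt8, whose promoter drives Cre, complete the check. Sox9 had 23313, 19948 and 21534 normalized counts in control, 7205.0, 9506 and 12433 in the libraries labelled LATS1/2-KO and 8812, 6756 and 6459.8 in those labelled LATS1/2-Sox9-KO. Its level overlapped between the deletion groups (log2 fold change -0.40, SE 0.19, adjusted p = 0.25). The position of the loxP sites in Sox9 is not given in the sources used here. RNA outside the deleted stretch would still be counted, so these counts do not show whether Sox9 was deleted. The study stained Sox9 protein in ducts of mice of this genotype and describes them as lacking Sox9. Krt8 was counted in every library, from 168813.8 to 216010.2 normalized counts in control, from 265242 to 293126 in the libraries labelled LATS1/2-KO and between 431237 and 461281 in those with LATS1/2-Sox9-KO labels. Krt8 rose against control with LATS1/2-KO labels (log2 fold change 0.58, SE 0.12, adjusted p = 0.00186) and with LATS1/2-Sox9-KO labels (log2 fold change 1.26, SE 0.12, adjusted p = 1.34e-05), and it was higher in the latter group than in the former (log2 fold change 0.68, SE 0.12, adjusted p = 0.0129). With an offset for GC content and exon length, the first of these was 0.94 (adjusted p = 0.000113).

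The promoter windows of the 10 genes were searched for GGAATG and its reverse complement CATTCC, the core letters of the element bound by TEAD factors. Windows of 300 bases, 250 before and 50 after the transcription start, were taken from RefSeq (GRCm38.p6), and 9 of the 10 genes had 11 windows among them, with none for Stk3. Of all 32851 windows, 14.7% held the letters at least once and 0.131% (43 windows) at least 3 times. Among the 10 genes, 4 of 11 windows held them: Wwc2 3 times, and Mob1a, Sav1 and Lats2 once each. The stretches are shown so that the letters can be seen in the genes that carry them, with GGAATG or CATTCC in capitals. The Wwc2 stretch (chr8:47990565-47990794, - strand) runs from 250 to 21 bases before the start, and Wwc2-202, a transcript with a retained intron, spans it. The others are 30 bases around the match, in Mob1a (chr6:83325818-83325847, + strand) 209 bases and in Sav1 (chr12:69987091-69987120, - strand) 106 bases before the start, and in Lats2 (chr14:57746102-57746131, - strand) just after it.
Wwc2: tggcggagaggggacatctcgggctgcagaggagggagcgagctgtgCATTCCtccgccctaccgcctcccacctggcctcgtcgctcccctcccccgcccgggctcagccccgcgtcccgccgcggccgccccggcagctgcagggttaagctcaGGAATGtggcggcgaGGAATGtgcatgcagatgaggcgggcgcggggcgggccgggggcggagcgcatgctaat
Mob1a: tggccagaatagCATTCCtttaggagaaga
Sav1: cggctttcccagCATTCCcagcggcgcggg
Lats2: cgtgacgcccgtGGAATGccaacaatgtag
The letters were thus present in genes that rose (Wwc2 and, within the limits given below, Mob1a), in 1 that fell (Sav1) and in Lats2. The windows of Stk4 and Mob1b, which rose, and of Lats1, which fell, did not hold them. A match is a run of letters only, and binding was not measured.

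The kinases upstream of LATS were both higher in the deletion groups. Stk4 (ENSMUSG00000018209, chromosome 2, 164070322 to 164155524), which encodes MST1, had 3451, 3233 and 3882 normalized counts in control, 6482, 8641 and 6992 in the libraries labelled LATS1/2-KO and 7120.0, 7876 and 7372 in those labelled LATS1/2-Sox9-KO. All 6 deletion libraries lay well above the 3 control libraries, and those of the deletion groups overlapped. The log2 fold change was 1.07 (SE 0.13, adjusted p = 8.1e-05) with LATS1/2-KO labels and 1.08 (SE 0.13, adjusted p = 6.11e-05) with LATS1/2-Sox9-KO labels, and the difference between the deletion groups was 0.02 (95% interval from -0.29 to 0.33). Stk3 (ENSMUSG00000022329, chromosome 15, 34875496 to 35178921), which encodes MST2, had 1939, 1988 and 2254 normalized counts in control, 3495, 3174 and 2867 with LATS1/2-KO labels and 2541, 2823 and 2915 with LATS1/2-Sox9-KO labels. Its rise was smaller, by a log2 fold change of 0.63 (SE 0.12, adjusted p = 0.00132) and 0.42 (SE 0.12, adjusted p = 0.011), with no deletion library as low as a control library. The first call was lost in 1 of the 20 alternatives, the offset for GC content and exon length with the replicate number as a block (0.32, adjusted p = 0.0546; 0.31 and adjusted p = 0.0307 without the block), and the latter in 3, among them that offset without the block, under which it was 0.15 (adjusted p = 0.24).

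Of the adaptors, Sav1 went down and the MOB1 genes went up. Sav1 (ENSMUSG00000021067, chromosome 12, 69965012 to 69987002), the scaffold that joins STK3 and STK4 to LATS, had 4746, 5216 and 5881 normalized counts in control. It had 2912.5, 2537 and 3210.3 in the libraries labelled LATS1/2-KO and 2943, 2441 and 2589.5 in those labelled LATS1/2-Sox9-KO. The highest deletion library was thus far below the lowest control library. The log2 fold change was -0.87 (SE 0.13, adjusted p = 0.000318) and -0.99 (SE 0.13, adjusted p = 0.000124), and both calls held in all 20 alternatives. Of the exon bases of Sav1, 25.4% overlap Atl1 on the opposite strand, where the study's methods state that counting used the strand, but the library kit named in the labels does not mark it, so it is uncertain how reads there were split. Atl1 had from 185 to 437 raw counts per library, against 2450 to 4725 for Sav1.

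Mob1b (ENSMUSG00000006262, chromosome 5, 88720855 to 88764220), an activating subunit of LATS, had 2750.0, 2781 and 2544 normalized counts in control, 3348, 4475 and 4547 with LATS1/2-KO labels and 3560.0, 3972 and 4173.5 with LATS1/2-Sox9-KO labels. Every deletion library was above every control library, and the log2 fold changes of 0.62 (SE 0.13, adjusted p = 0.003) and 0.54 (SE 0.13, adjusted p = 0.00602) passed in all 20 alternatives. Mob1a (ENSMUSG00000043131, chromosome 6, 83326016 to 83343776), its paralog, had 9524, 9423.5 and 10639.9 normalized counts in control, 13691, 12672.5 and 10413.5 with LATS1/2-KO labels and 13676.5, 12359.9 and 12844 with LATS1/2-Sox9-KO labels. Replicate 3 of the libraries labelled LATS1/2-KO lay below control replicate 3, so these groups overlapped, while the libraries labelled LATS1/2-Sox9-KO lay above control. The log2 fold changes were 0.31 (SE 0.12, adjusted p = 0.044) and 0.39 (SE 0.12, adjusted p = 0.0157). The first held in 5 of 20 alternatives and turned to -0.03 with the offset for GC content and exon length (adjusted p = 0.854), and without LATS1/2-KO replicate 3 it was 0.43 (adjusted p = 0.0106). It was lost without any other single library but control replicate 3 (adjusted p from 0.0531 to 0.134). The second fell to 0.07 with that offset (adjusted p = 0.629) and was lost without control replicate 1 (adjusted p = 0.0526) or 2 (adjusted p = 0.0592). With the replicate number as a block the first was 0.31 (adjusted p = 0.0697).

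The upstream scaffolds differed from each other. Wwc2 (ENSMUSG00000031563, chromosome 8, 47823959 to 47990924), a relative of KIBRA that binds and activates LATS, showed the highest log2 fold change of the 10 genes with LATS1/2-KO labels. It had 4745, 3863.5 and 4093 normalized counts in control, 9289, 10154 and 11459 in the libraries labelled LATS1/2-KO and 9183, 7056 and 7003.5 in those labelled LATS1/2-Sox9-KO. The 3 groups did not overlap one another, with the second deletion group in between. The log2 fold change against control was 1.28 (SE 0.14, adjusted p = 5.05e-05) and 0.87 (SE 0.14, adjusted p = 0.000465), and between the deletion groups it was -0.41 (95% interval from -0.75 to -0.07), which did not pass after adjustment (adjusted p = 0.115). With the offset for GC content and exon length, the change with LATS1/2-Sox9-KO labels was 1.33 (adjusted p = 3.29e-05), past 2-fold. Of the exon bases of Wwc2, 7.22% overlap Cldn22 on the opposite strand. Wwc1 (ENSMUSG00000018849, chromosome 11, 35838400 to 35980527), which encodes KIBRA, had 14383, 11477 and 9532 normalized counts in control, 11793 to 17558 with LATS1/2-KO labels and 13158 to 15618 with LATS1/2-Sox9-KO labels. The groups overlapped, and neither comparison with control passed (log2 fold change 0.33, adjusted p = 0.146, and 0.25, adjusted p = 0.253). With the offset for GC content and exon length both passed, at 0.97 (adjusted p = 0.000757) and 0.89 (adjusted p = 0.00114), and the first passed also without control replicate 1 (0.50, adjusted p = 0.0475) or LATS1/2-KO replicate 1 (0.47, adjusted p = 0.0419). When each library was left out in turn, the first ranged from 0.18 to 0.50 and the second from 0.13 to 0.42.

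Nf2 (ENSMUSG00000009073, chromosome 11, 4765845 to 4849536), the tumour suppressor gene of merlin, was the only one of the 10 genes called between the deletion groups. It had 11168, 10590.4 and 10934 normalized counts in control, with little spread. The libraries labelled LATS1/2-KO gave 8402.5, 18297.5 and 15355, so that replicate 1 lay below every control library and the others above. Those labelled LATS1/2-Sox9-KO gave 8139, 7068 and 6998, below every other library. The log2 fold change between the deletion groups was -0.92 (SE 0.23, adjusted p = 0.0448), but this call was lost in 13 of 20 alternatives, among them the block on replicate number (-0.88, adjusted p = 0.0789) and leaving out any library but LATS1/2-KO replicate 1 (adjusted p from 0.0572 to 0.162). Against control, Nf2 did not pass with LATS1/2-KO labels (0.36, adjusted p = 0.204) or LATS1/2-Sox9-KO labels (-0.56, adjusted p = 0.0594), but the latter passed in 7 of 20 alternatives, among them DESeq2 (adjusted p = 0.0306) and a fit of only the groups compared (adjusted p = 0.0013). Without LATS1/2-KO replicate 1, both comparisons with control passed, the first at a log2 fold change of 0.63 (adjusted p = 0.00155) and the latter at -0.55 (adjusted p = 0.00162), and the latter passed without LATS1/2-KO replicate 2 as well (-0.54, adjusted p = 0.0384). With the offset for GC content and exon length the first passed at 0.87 (adjusted p = 0.0137), while the latter was -0.04 (adjusted p = 0.894). When each library was left out in turn, the change with LATS1/2-KO labels ranged from 0.11 to 0.63.

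**Figure D3:**
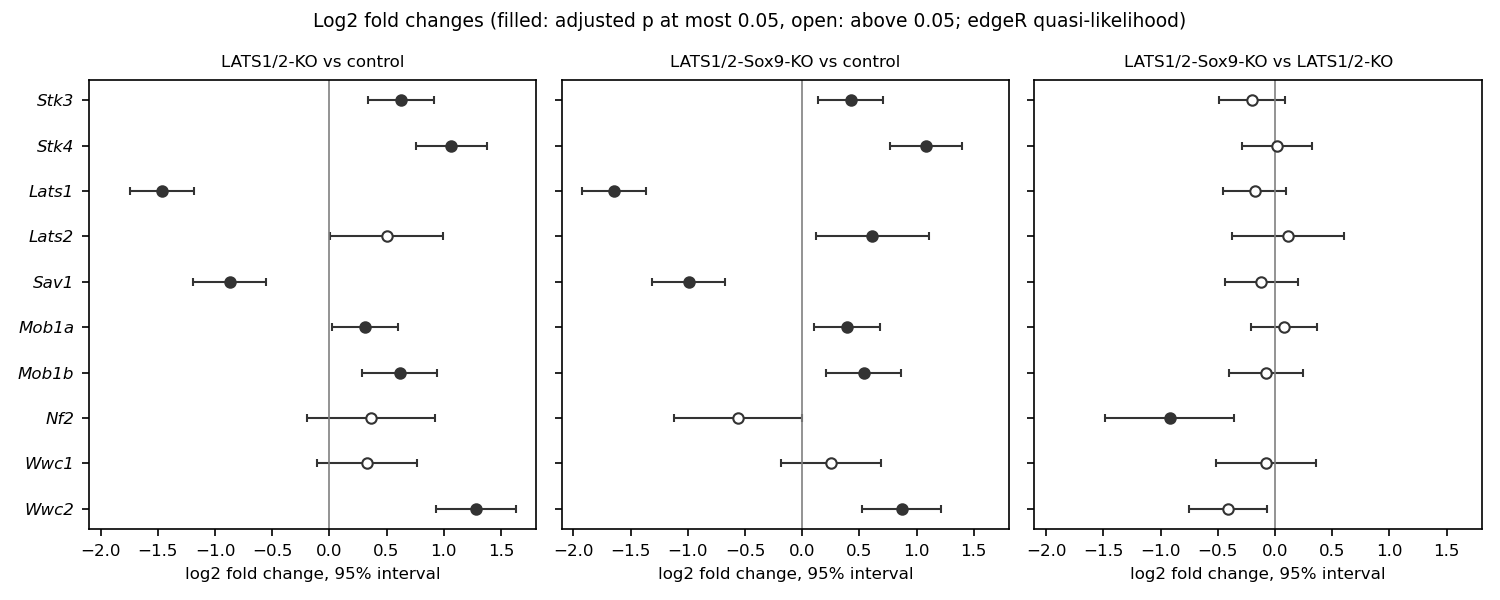
Log2 fold changes of the 10 genes (x axes) with 95% intervals in the 3 comparisons, filled where the adjusted p was at most 0.05 and open where it was above. Lats1 and Sav1 are on the lower side in both comparisons with control, Wwc2 reaches 1.28 with LATS1/2-KO labels, and only Nf2 is filled between the deletion groups.

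For scale, the median absolute log2 fold change of all genes tested was 0.81 with LATS1/2-KO labels and 0.87 with LATS1/2-Sox9-KO labels. By absolute log2 fold change with LATS1/2-Sox9-KO labels, Lats1 itself ranked 5122 of 19357 genes tested. Sox9, at a log2 fold change of -1.56, ranked 5444. With LATS1/2-KO labels, where Sox9 was not floxed, it was lower than control as well (log2 fold change -1.15, adjusted p = 0.000682).

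To compare the genes with each other, counts were divided by merged exon length and are given as normalized counts per 1000 bases of exon in 1000000 counts. In control, Wwc1 (44.2 ± 9.14, SD, n = 3) and Mob1a (38.2 ± 2.62) had the highest levels and overlapped. Nf2 (29.7 ± 0.791), Sav1 (18.6 ± 2.01), Lats1 (14.9 ± 0.387) and Stk4 (11.2 ± 1.05) followed, each apart from its neighbours. Stk3 (6.26 ± 0.515) and Wwc2 (5.71 ± 0.616) overlapped, and the lowest levels were those of Mob1b (3.33 ± 0.159) and Lats2 (2.78 ± 0.472), which overlapped too. With LATS1/2-KO labels, Stk4 (23.4 ± 3.58) and Wwc2 (13.9 ± 1.47) stood above Sav1 (10.2 ± 1.19), while Lats1 (5.39 ± 0.528) dropped to eighth place and overlapped with Mob1b (5.10 ± 0.831). With LATS1/2-Sox9-KO labels, the 3 lowest levels, those of Mob1b (4.82 ± 0.387), Lats1 (4.76 ± 0.448) and Lats2 (4.24 ± 0.956), overlapped from one to the next. The order depends on the exon length used. With the longest transcript in place of merged exons, Nf2 (42.9 ± 1.14) came before Mob1a (41.5 ± 2.84) and overlapped with it, Stk4 and Stk3 overlapped, and Mob1b and Lats2 did not. With only the exon bases of Lats2 that no other gene shares, an alternative chosen after the data were seen, its control level was 4.82 ± 0.820, above that of Mob1b with no overlap. That alternative gave Lats2 a level of 6.805 ± 1.09 with LATS1/2-KO labels and 7.366 ± 1.66 with LATS1/2-Sox9-KO labels. Both means were above those of Lats1 and Mob1b.

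In 3 of the 4 paralog pairs, the shares of the paralogs lay outside the control range in every deletion library. How often pairs of other genes do so was not computed. Of all genes tested, 28.7% were higher and 27.1% lower with LATS1/2-KO labels. Of the summed per-length level of Lats1 and Lats2, Lats1 made up 83.9%, 86.8% and 82.3% in the control libraries, 61.4%, 56.2% and 56.4% in those labelled LATS1/2-KO and 50.1%, 52.7% and 56.8% in those labelled LATS1/2-Sox9-KO. The sum itself was 17.7 ± 0.625 in control, 9.31 ± 1.06 with LATS1/2-KO labels and 9.01 ± 1.40 with LATS1/2-Sox9-KO labels (SD, n = 3). No deletion library reached the control range of the share or of the sum (exact permutation test, two-sided, p = 0.1 in each comparison, the smallest that 3 against 3 libraries can give). Which paralog was the larger in the deletion groups depended on the exon length used. With only unshared exon bases of Lats2, the mean share of Lats1 was 44.3% with LATS1/2-KO labels and 39.6% with LATS1/2-Sox9-KO labels. With the longest transcript it was 51.0% and 46.2%. The summed level of Stk3 and Stk4 was 17.4 ± 1.52 in control, 33.0 ± 3.48 with LATS1/2-KO labels and 32.0 ± 1.64 with LATS1/2-Sox9-KO labels. Within it, the share of Stk3 was 35.0% to 37.1% in control, 26.0% to 34.1% and 25.5% to 27.5%, with no overlap with control (exact permutation p = 0.1 in each). Mob1a made up 91.4% to 92.9% of its pair in control, 87.8% to 92.8% with LATS1/2-KO labels and 90.6% to 92.3% with LATS1/2-Sox9-KO labels, and these overlapped (exact permutation p = 0.3 and p = 0.4). Wwc1 made up 86.6% to 89.4% of its pair in control, 77.9% to 81.0% with LATS1/2-KO labels and 82.5% to 84.1% with LATS1/2-Sox9-KO labels, lower than control in all 6 libraries (exact permutation p = 0.1 in each).

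**Figure D4:**
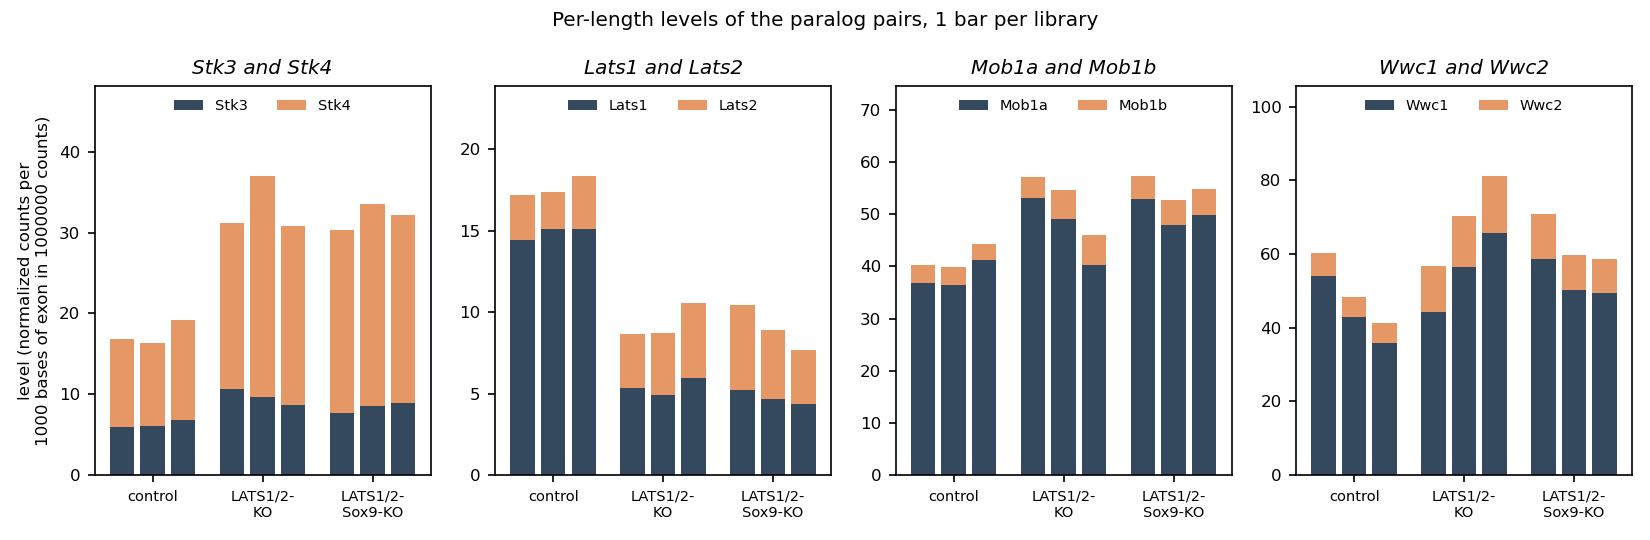
Per-length levels (y axes, normalized counts per 1000 bases of merged exon in 1000000 counts, linear from 0) of 4 paralog pairs, stacked, with 1 bar per library in 3 groups. The summed bar of Lats1 and Lats2 is lower in the 6 deletion libraries (7.66 to 10.5) than in control (17.2 to 18.4), and that of Stk3 and Stk4 is higher (30.3 to 37.0 against 16.3 to 19.2).

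Across the 9 libraries, and as a description only since the libraries of a group share their genotype, the log2 normalized counts of Lats1 and Sav1 ran together (Pearson r = 0.981), and those of Stk4 ran against Lats1 (r = -0.974) and with Mob1b (r = 0.907). Nf2 had r from -0.39 to 0.314 with the other members. Among 11635 genes compared, those with the pattern most like Lats1 were Zer1 (r = 0.9989), Tbx3 (r = 0.9987) and R3hdm4 (r = 0.9983), and 1177 genes had r over 0.95 with it. Tbx3, a transcription factor gene of mammary development, had a mean of 7223 normalized counts in control, 1153 with LATS1/2-KO labels and 891 with LATS1/2-Sox9-KO labels. Those most like Lats2 were Plekhf2 (r = 0.9606), Akirin2 (r = 0.9278) and Actn4 (r = 0.9214), and 1 gene had r over 0.95 with it.

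Around the 10 genes, 108 other genes of the pathway were tested in 9 lists by role, with 3 of the genes in more than 1 list. With LATS1/2-KO labels, 50 of the 108 were higher and 29 lower than in control, with a median log2 fold change of 0.27. With LATS1/2-Sox9-KO labels, 54 were higher and 30 lower (median 0.34), and between the deletion groups 3 were higher and 4 lower (median 0.002). Of all genes tested, 28.7% were higher and 27.1% lower with LATS1/2-KO labels, and 29.3% and 28.7% with LATS1/2-Sox9-KO labels. Between the deletion groups, 3.13% were higher and 3.33% lower. The counts of each role list below are to be read beside these shares, and several lie near them.

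Other kinases that act on LATS were called in both directions, as were all genes tested (28.7% higher and 27.1% lower with LATS1/2-KO labels). Of 10 genes of the parallel MAP4K and TAOK kinases, 4 were higher and 3 lower with LATS1/2-KO labels. Mink1 fell (mean normalized count 2214 against 8786 in control, log2 fold change -1.99, SE 0.15, adjusted p = 7.15e-06) and so did Map4k2 (599.9 against 2091), while Map4k5 rose (9070 against 3807). With the offset for GC content and exon length, the log2 fold changes were -1.28 for Mink1 and -1.19 for Map4k2 (-1.80 without it). In the STRIPAK complex, a phosphatase assembly that opposes STK3 and STK4, 6 of 14 were higher and 2 lower. Its Strn rose (6631 against 2387) and so did Cttnbp2nl (7371 against 3177), and Strip2 fell from a mean of 202.3 to 51.1, 7.6 and 6.4 (log2 fold change -3.23, and -4.82 without LATS1/2-KO replicate 1). All 6 genes of RASSF proteins, partners of STK3 and STK4, passed, 4 higher and 2 lower. Rassf4 went from 2990.1, 2617 and 1185 normalized counts in control to 12303, 40520.3 and 17838 with LATS1/2-KO labels (log2 fold change 3.38, SE 0.49, adjusted p = 0.000251, and 2.72 without LATS1/2-KO replicate 2), and Rassf6 fell from a mean of 4128 to 594.1.

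Of 20 genes of junction and cortex regulators, which act beside NF2 and the WWC proteins, 7 were higher and 5 lower with LATS1/2-KO labels. Of all genes tested, 28.7% were higher and 27.1% lower in that comparison. Amot, encoding angiomotin, which holds YAP at junctions, had 1516, 1509 and 1362 normalized counts in control and 31023.5, 42679 and 35549 with LATS1/2-KO labels (log2 fold change 4.64, SE 0.15, adjusted p = 1.17e-07). Amotl2 rose from a mean of 8455 to 31170, and Ptpn14 from 1639 to 5884. The log2 fold change of Amotl2 was 1.88, and 2.55 with the offset for GC content and exon length. Of 13 genes for LATS inhibitors and LATS degradation, 7 were higher and 4 lower, with the LIM protein gene Ajuba rising from a mean of 758.8 to 7978 (log2 fold change 3.39, SE 0.20, adjusted p = 2.17e-06) and the ubiquitin ligase gene Wwp1 from 917.6 to 4700 (log2 fold change 2.36, SE 0.19, adjusted p = 7.3e-06). Wtip rose as well, from 727.4 to 2143. The same lists held 11 higher and 5 lower, and 7 higher and 4 lower, with LATS1/2-Sox9-KO labels, where Zyx was named by the same rule (20500 against 6971, log2 fold change 1.56, and 2.18 with the offset for GC content and exon length).

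Downstream of LATS, of 12 genes for coactivator degradation and retention 3 were higher and 4 lower with LATS1/2-KO labels, near the 28.7% and 27.1% of all genes tested. Btrc and Fbxw11, encoding the ubiquitin ligase subunits that mark YAP and TAZ for degradation, fell from means of 2938 and 24840 to 821.5 and 7318. Ywhah, a 14-3-3 gene, rose from 3996 to 12570. Of 9 coactivator and TEAD genes, 5 were higher and 3 lower. Yap1 fell with LATS1/2-KO labels (log2 fold change -0.65, SE 0.14, adjusted p = 0.00339) and with LATS1/2-Sox9-KO labels (-0.78, SE 0.14, adjusted p = 0.00107). Wwtr1 rose with LATS1/2-KO labels (0.43, SE 0.14, adjusted p = 0.0211), was at -0.22 with LATS1/2-Sox9-KO labels (adjusted p = 0.2) and was lower in the latter than in the former (-0.65, SE 0.14, adjusted p = 0.0251). Vgll1, a TEAD partner, had 0 counts in the control libraries, 264.8, 159.3 and 168.7 normalized counts with LATS1/2-KO labels and 24.1, 59.8 and 51.9 with LATS1/2-Sox9-KO labels, and it was lower in the latter (log2 fold change -2.12, SE 0.43, adjusted p = 0.0307). Vgll3 rose from 10.4, 3.4 and 8.7 to 2893, 4973 and 3696. Tead2 fell from 12165, 14193 and 17155 to 3016, 1871 and 3626, and to 1293, 996.4 and 1202 with LATS1/2-Sox9-KO labels, below the other deletion group (log2 fold change -1.28, SE 0.23, adjusted p = 0.0142). The log2 fold changes of Tead2 against control, -2.35 and -3.64, were -1.73 and -2.99 with the offset for GC content and exon length. Tead4 rose from 348.8 to 1701 with LATS1/2-KO labels and 2227 with LATS1/2-Sox9-KO labels. Of the calls between the deletion groups, those of Vgll1 and Wwtr1 were lost with the replicate block (adjusted p = 0.0732 and 0.0521). Without single libraries of the deletion groups, Vgll1 was lost in 5 cases (adjusted p up to 0.084; LATS1/2-KO replicates 2 and 3 and every LATS1/2-Sox9-KO replicate), Wwtr1 in the same 5 (up to 0.115) and Tead2 without LATS1/2-Sox9-KO replicate 2 (0.069). With the offset for GC content and exon length, the change of Wwtr1 against control was 0.12 with LATS1/2-KO labels (adjusted p = 0.516) and -0.53 with LATS1/2-Sox9-KO labels (adjusted p = 0.00993), and without control replicate 3 it was 0.29 (adjusted p = 0.0639) and -0.34 (adjusted p = 0.0293). Without LATS1/2-KO replicate 3 the first was 0.36 (adjusted p = 0.0734).

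Of 17 direct target genes of YAP, TAZ and TEAD, 14 were higher and 2 lower in each comparison with control, and none passed between the deletion groups. Ankrd1 had from 19.3 to 29.9 normalized counts in control and from 14760.3 to 28576 with LATS1/2-KO labels. Ccn2, which encodes CTGF, had 1399, 1047 and 965.8 in control and 78000.6, 215954 and 144855 with LATS1/2-KO labels (log2 fold change 7.01, SE 0.42, adjusted p = 2.22e-06), and 23.2% of its exon bases overlap an annotated gene on the opposite strand. Fjx1 rose from a mean of 24.97 to 1060.0. Amotl2, Ajuba and Ptpn14 are in this list as well as in the role lists above, and Lats2, outside it, is also known as a gene that responds to YAP and TAZ. In the junction list, Dlg1 was the gene with the highest change between the deletion groups, at 22006, 19054 and 19263 normalized counts with LATS1/2-KO labels and 43166.5, 45119.9 and 40528 with LATS1/2-Sox9-KO labels (log2 fold change 1.09, SE 0.10, adjusted p = 0.0014).

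**Figure D5:**
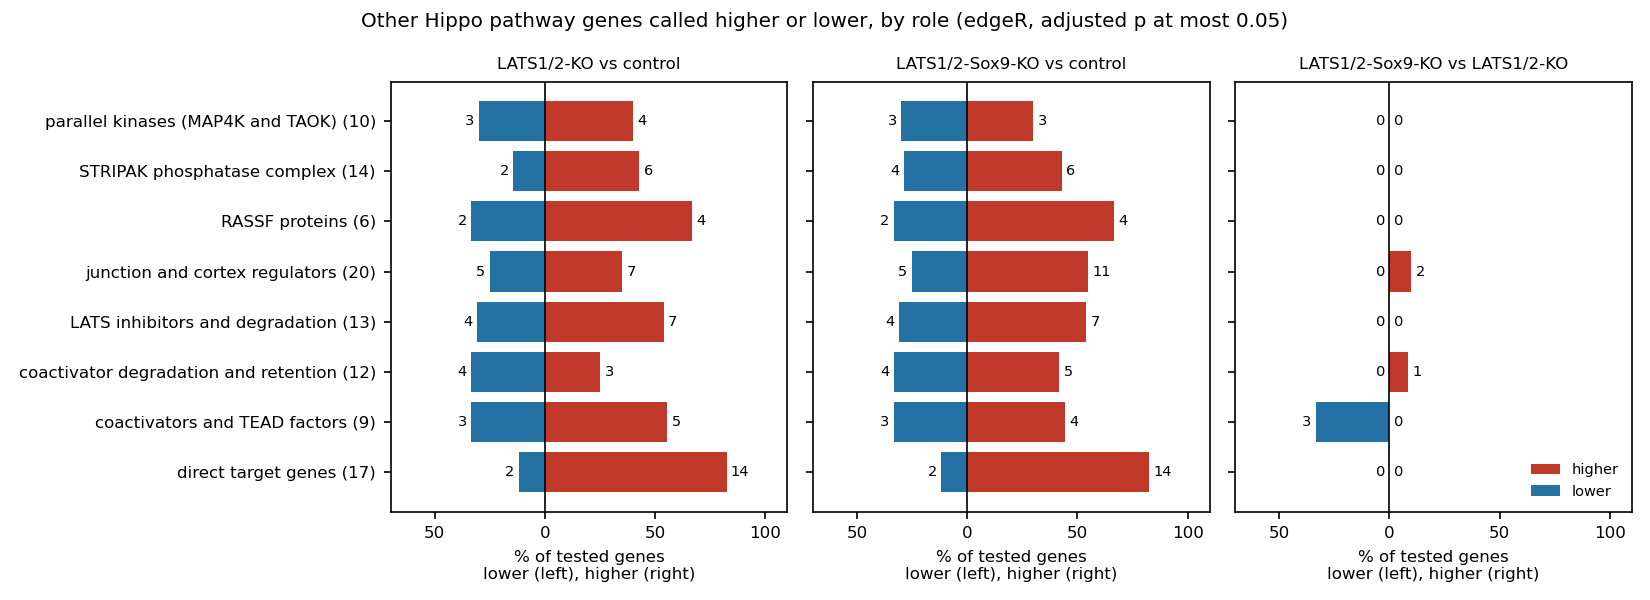
Share of the tested genes of 8 of the 9 role lists (y axis, number tested in brackets) called higher (right, red) or lower (left, blue) in the 3 comparisons, as a percentage of the genes in the list (x axes), with the number of genes at each bar end. Direct target genes reach 14 of 17 higher in both comparisons with control and 0 of 17 in either direction between the deletion groups.

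Markers of the sorted cell type and of other cell types moved with the groups. The 12 luminal markers, with Krt18 the most abundant, were all detected and summed to 1050685, 1022842 and 1157306 normalized counts in control, 948066, 922416.5 and 930856 with LATS1/2-KO labels and 1540098, 1415578 and 1330936 with LATS1/2-Sox9-KO labels, although 8 of the 12 were lower and 2 higher than control in each comparison. The 8 basal and myoepithelial markers, with Krt14 the most abundant, summed to 4516.5, 5617 and 4943.5 in control, 269024, 161848 and 156392 with LATS1/2-KO labels and 158432, 281657 and 386966 with LATS1/2-Sox9-KO labels, and 4 were higher and 2 lower than control in the first comparison and 4 higher and 4 lower in the second. The 12 leukocyte markers, with Cd3e and Ms4a1 at 0 in every library, summed to 1147, 847.1 and 777.9 in control, 4403, 3108 and 2099.5 with LATS1/2-KO labels and 3572, 3769.5 and 4833 with LATS1/2-Sox9-KO labels. Csf1r was the most abundant over all libraries together, but in control Cd68 (mean 402.6) and Lyz2 (mean 232.4) were above it. Of the 7 tested, 1 was higher than control with LATS1/2-KO labels and 2 with LATS1/2-Sox9-KO labels, and Csf1r alone went from a mean of 158.4 in control to 2310.0 and 3238. Of the exon bases of Csf1r, 15.1% overlap Hmgxb3 on the opposite strand. Ptprc, which defines leukocytes, had at most 166.5 normalized counts in a library. These sums differed between the groups in the same comparisons as Lats1, Sav1, Stk4 and Wwc2, and their part in those results was not tested.

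Markers of other cells that the sort could hold were counted as well. The gene in brackets is the most abundant over all libraries together, which need not hold in each group. The 8 fibroblast markers (Dcn) summed to between 2461 and 10229.8 in a library. In both deletion groups Col3a1 had a higher mean than Dcn. Of these 8, 4 were higher and 1 lower than control with LATS1/2-KO labels, and 3 higher and 2 lower with LATS1/2-Sox9-KO labels, with Col3a1 at a mean of 228.5 in control, 2006 and 1880.0 and Dcn at 4360.0, 923.3 and 157.5. In each library the 6 endothelial markers (Pecam1) summed to between 259.9 and 796.1, and the 3 Schwann cell markers (Sox10) to between 1705 and 3839. The 4 pericyte markers (Mcam) summed to between 1456 and 2716 in control, 3191 and 5666.5 with LATS1/2-KO labels and 1165 and 2025.5 with LATS1/2-Sox9-KO labels. Nearly all of the sum with LATS1/2-KO labels was Mcam (5570.3, 3123 and 3632.6). Rgs5 went the other way, from 141.5, 102.1 and 189.2 in control to 45.1, 39.8 and 3.6. Of the 3 tested, 2 were higher and 1 lower than control with LATS1/2-KO labels, and 0 higher and 1 lower with LATS1/2-Sox9-KO labels. The 4 adipocyte markers (Cidec) summed to 7.0, 821 and 430.5 with LATS1/2-KO labels, 32.5, 212.2 and 158.5 with LATS1/2-Sox9-KO labels and at most 12.5 in control, and 3 of the 4 were higher than control in each comparison. The 3 erythroid markers (Hba-a1) summed to at most 74.2, with Hbb-bt at 0 in every library. LATS1/2-KO replicate 1, the library of its group that was low in Nf2, had the lowest adipocyte and Schwann cell sums of the group. Its sums of all other lists were the highest of the group. These were the luminal (948066 against 922416.5 and 930856), fibroblast (10229.8 against 2627 and 3279), leukocyte, pericyte, basal, erythroid and endothelial (673 against 632.9 and 632.9) sums. Most of its basal sum of 269024 was Krt14 (252969). The part of the marker sums in the values of the 10 genes was not tested.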

How the data were processed

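RNA was sequenced from FACS-sorted EYFP+ mammary cells, 3 libraries in each of 3 groups (control, LATS1/2-KO, LATS1/2-Sox9-KO) taken from the sample labels. Per the study's methods, the authors aligned reads to mm10 with STAR 2.6.0c and deposited raw gene counts from featureCounts (Subread 1.6.2) for properly paired, uniquely aligned reads on the gene's strand, with an Ensembl annotation of another release than GENCODE M21, which gave the exon lengths and overlaps used here. The submitters' processing notes name the same tools. The counts were tested with edgeR 4.0.16 (R 4.3.3) by the quasi-likelihood F test after filterByExpr and TMM factors, with all 9 libraries in 1 fit, no covariate and Benjamini-Hochberg adjustment over 19357 genes. Normalized counts are counts scaled by TMM library size to the mean library. Per-length levels are those per 1000 bases of merged GENCODE M21 exons (GRCm38) in 1000000 counts. Raw counts were deposited with total counts of 44167762 to 61967651 per library.

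The members, the role lists and the marker lists were chosen with earlier results of these data known. Besides the 10 genes, the genes named were, per role list and comparison with control, up to 3 called genes of largest absolute log2 fold change whose mean reached 100 normalized counts in the higher group, with no overlap between groups, up to 3 over all lists between the deletion groups, the most abundant gene and every gene at 0 of each marker list, Sox9, Krt8, Yap1, Wwtr1, and the 3 genes most like Lats1 and Lats2 by Pearson r of log2(normalized count + 1). The counts of 1 role list are not reported here on their own. On simulated data for the comparison of LATS1/2-KO with control, over 19357 genes, 39% of 100 genes changed 2-fold and 73% of 100 genes changed 4-fold were called, with 6 of 19157 unchanged genes. The changed genes were drawn at random from all genes tested, with low counts or high. They were far fewer than the 5550 higher and 5238 lower genes called in the data, which makes the adjustment stricter in the simulation. DESeq2 1.42.0, other scaling factors, filters, fits with 2 groups, a replicate block, a GC content and length offset, glmTreat (limma 3.58.1 was loaded by edgeR) and leaving out each library were tried as alternatives.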

Additional observations from a re-analysis of the deposited data

How the results depend on the processing

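Of 600 recomputed log2 fold changes of the 10 genes (20 alternatives in each of 3 comparisons), 525 kept their direction and their side of the threshold, 24 passed it newly, 39 no longer passed and 12 changed sign, all 12 with a value close to 0. Lats1, Sav1, Stk4, Mob1b and Wwc2 kept their calls against control in all 20 alternatives. The sign changed for Mob1a with LATS1/2-KO labels under the GC content and length offset (-0.027, and -0.032 with the replicate block). Between the deletion groups it changed for Stk4 with upper-quartile factors (-0.036) and for Mob1b under the offset (0.06, and 0.073 with the block), and with 1 library left out it changed for Stk4 (from -0.067 to 0.176), Mob1b (-0.208 to 0.012), Mob1a (-0.024 to 0.168), Wwc1 (-0.215 to 0.065) and Lats2 (-0.036 to 0.286). Without LATS1/2-KO replicate 3, Yap1 between the deletion groups was 0.043 in place of -0.129 (from -0.194 to 0.043 with 1 library left out). The offset also raised Lats2 with LATS1/2-KO labels to 0.89 (adjusted p = 0.00304, edgeR). The cause was not tested.

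Counts of calls against control stayed within 1.5 times, except that glmTreat against a fold change of 1.2 left 3 of the 10 genes higher with LATS1/2-Sox9-KO labels in place of 6. Between the deletion groups, DESeq2 called 7 other pathway genes higher and 7 lower, and 1298 of all genes tested higher and 1297 lower, in place of 3, 4, 605 and 644. Fitting only the 2 groups left 0 of the 10 genes lower and 1 pathway gene higher. The replicate block left 0 of the 10 genes lower and 1 pathway gene lower. The GC content and length offset left 0 of the 10 genes lower and 7 pathway genes higher, and with the block 0, 8 pathway genes higher and 2 lower. The glmTreat test left 0 of the 10 genes lower, 1 pathway gene higher, 2 lower, and 301 genes higher and 350 lower over all. Leaving out 1 library at a time gave 0 to 1 of the 10 genes lower, 1 to 6 pathway genes higher and 0 to 6 lower, and 155 to 1012 genes higher and 94 to 1032 lower over all, the lowest without LATS1/2-Sox9-KO replicate 2 and the highest without LATS1/2-KO replicate 1.

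Whether the replicate numbers pair the samples could not be settled with 3 libraries a group. Same-numbered libraries of different groups deviated from their group means with r from -0.066 to 0.17, over 0.1 in 2 of 9 pairs. For libraries with other numbers, r ran from -0.164 to 0.064. Both pairs over 0.1 joined the deletion groups, at 0.105 for replicate 1 and 0.17 for replicate 2, against -0.032 for replicate 3. Of the 9 libraries, 3 correlated best with their own number. The replicate block changed the calls of Mob1a, Nf2, Vgll1 and Wwtr1, as given with those genes, and no other call of the 10 genes or of the pathway genes named.

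Shares within paralog pairs depended on the exon length used. With the longest transcript in place of merged exons, the share of Lats1 was 80.2% in control, 51.0% with LATS1/2-KO labels and 46.2% with LATS1/2-Sox9-KO labels, that of Stk3 48.2%, 40.8% and 37.0%, that of Mob1a 88.1%, 85.6% and 87.1%, and that of Wwc1 84.0%, 73.1% and 77.7%. With only unshared exon bases of Lats2, an alternative chosen after the data were seen, the share of Lats1 was 75.6%, 44.3% and 39.6%.

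With 3 libraries a group, a difference whose interval includes 0 is not shown to be absent, and 2-fold changes are often missed at this depth and spread. Only the sum of RNA over the sorted cells was measured, and neither protein nor kinase activity.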
